A study of Homo sapiens with 6 samples.

Results

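Transcripts of 41 genes that make, lengthen, desaturate and activate fatty acids, or that make and break down ceramide, were compared between HaCaT cells with a short hairpin RNA against IQGAP2 and control HaCaT cells. The genes were chosen by name for their step in these pathways, at a time when earlier results of these data were known, and all 41 were found among the 12829 genes of the deposited table. HaCaT is an aneuploid, immortal human keratinocyte line and serves as a model of the epidermis. There were 3 knockdown libraries (genotype IQGAP2 knockdown, shIQGAP2) and 3 control libraries (genotype WT, called normal control), all from cells grown in DMEM with serum. The labels state neither whether the control cells carried a hairpin of their own nor how many hairpins or clones were used. They call the libraries biological replicates without saying that the cultures were separate, so p-values speak only to variation among these libraries, possibly technical.

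Fatty acid synthesis starts in the cytosol, where citrate or acetate is turned into acetyl-CoA, which is carboxylated to malonyl-CoA and then built into palmitate by fatty acid synthase. Palmitate is lengthened by elongases, given double bonds by desaturases, and bound to coenzyme A before it enters glycerolipids or sphingolipids. Ceramide is made in the endoplasmic reticulum from serine and palmitoyl-CoA, and in the epidermis its glucosylated and very-long-chain forms are exported in lamellar bodies and build the water barrier.

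Levels are given as FPKM (fragments scaled for gene length and library size), the unit of the deposited values, which can be set side by side between genes because they are per length. Means are given ± SD over 3 libraries. Each log2 change subtracts the control mean of log2(FPKM + 1) from the knockdown mean, a scale on which differences of weakly expressed genes look smaller than they are. A gene is said to have risen or fallen where the adjusted p of limma, over all genes averaging 0.5 FPKM or more, was below 0.05. The libraries held 12901037 to 15360759 recovered reads in the knockdown group and 13957447 to 15122470 in the control group. IQGAP2 itself stood at 0.0196, 0.0328 and 0.0182 FPKM in knockdown libraries, against 0.200, 0.198 and 0.190 FPKM in control libraries (exact two-sided permutation p = 0.1, the smallest that 3 against 3 libraries allow). It was thus rare in control libraries too, below the filter of 0.5 FPKM, and was not tested with limma. Keratinocyte markers were all present (10 of 10), mostly KRT14, KRT5 and SFN, summing to 5470 to 6050 FPKM with knockdown and 5510 to 5600 FPKM in control libraries. Of the 10, COL17A1, DSG3, ITGA6, DSC3, KRT5 and TP63 rose (log2 changes 0.17 to 1.06) and KRT15 fell (-0.79), with a median of 0.27, and their part in the results below was not tested. Of 8 sebocyte markers only FAR2 and KRT79 had a row, summing to 1.72 to 2.54 FPKM with knockdown and 2.17 to 2.33 FPKM in control libraries. Of 7 fibroblast markers, the 3 with a row were COL1A1, DCN and LUM. They summed to 1.56 to 1.91 FPKM with knockdown and 3.46 to 3.79 FPKM in control libraries, but did not move together. LUM fell from a control mean of 2.205 FPKM to 0.268 FPKM with knockdown (log2 change -1.34, adjusted p = 6.4e-06). DCN, under the filter and without a limma test, averaged 0.0426 FPKM with knockdown and 0.2075 FPKM in controls. COL1A1 averaged 1.44 FPKM with knockdown and 1.24 FPKM in controls, with overlap (adjusted p = 0.237). The part of these fibroblast markers in the results below was not tested either. The remaining lists (melanocyte, endothelial, immune, adipocyte) had 1, 2, 1 and 2 genes with a row, at sums of at most 0.838 FPKM with knockdown and 0.968 FPKM in control libraries.

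Of the 41 genes, 18 rose, 5 fell and 17 did not pass the test, while ELOVL4 lay under the filter on low values and was not tested. Over all 11214 genes tested, 57.4% were called, 29.5% as higher and 27.8% as lower. Among the 40 tested genes of lipid synthesis 57.5% were called, 45.0% as higher and 12.5% as lower. The share called thus equals the background, and the calls lay more on the higher side, with a median log2 change of 0.22 against 0.01 over all genes tested. The knockdown values lay wholly above the control values for 22 of the 41 genes and wholly below for 7, against 31.4% and 29.6% of all genes in the table (61.0% in either direction). In bulk RNA, fewer cells of a type and less RNA per cell cannot be told apart.

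**Figure D1:**
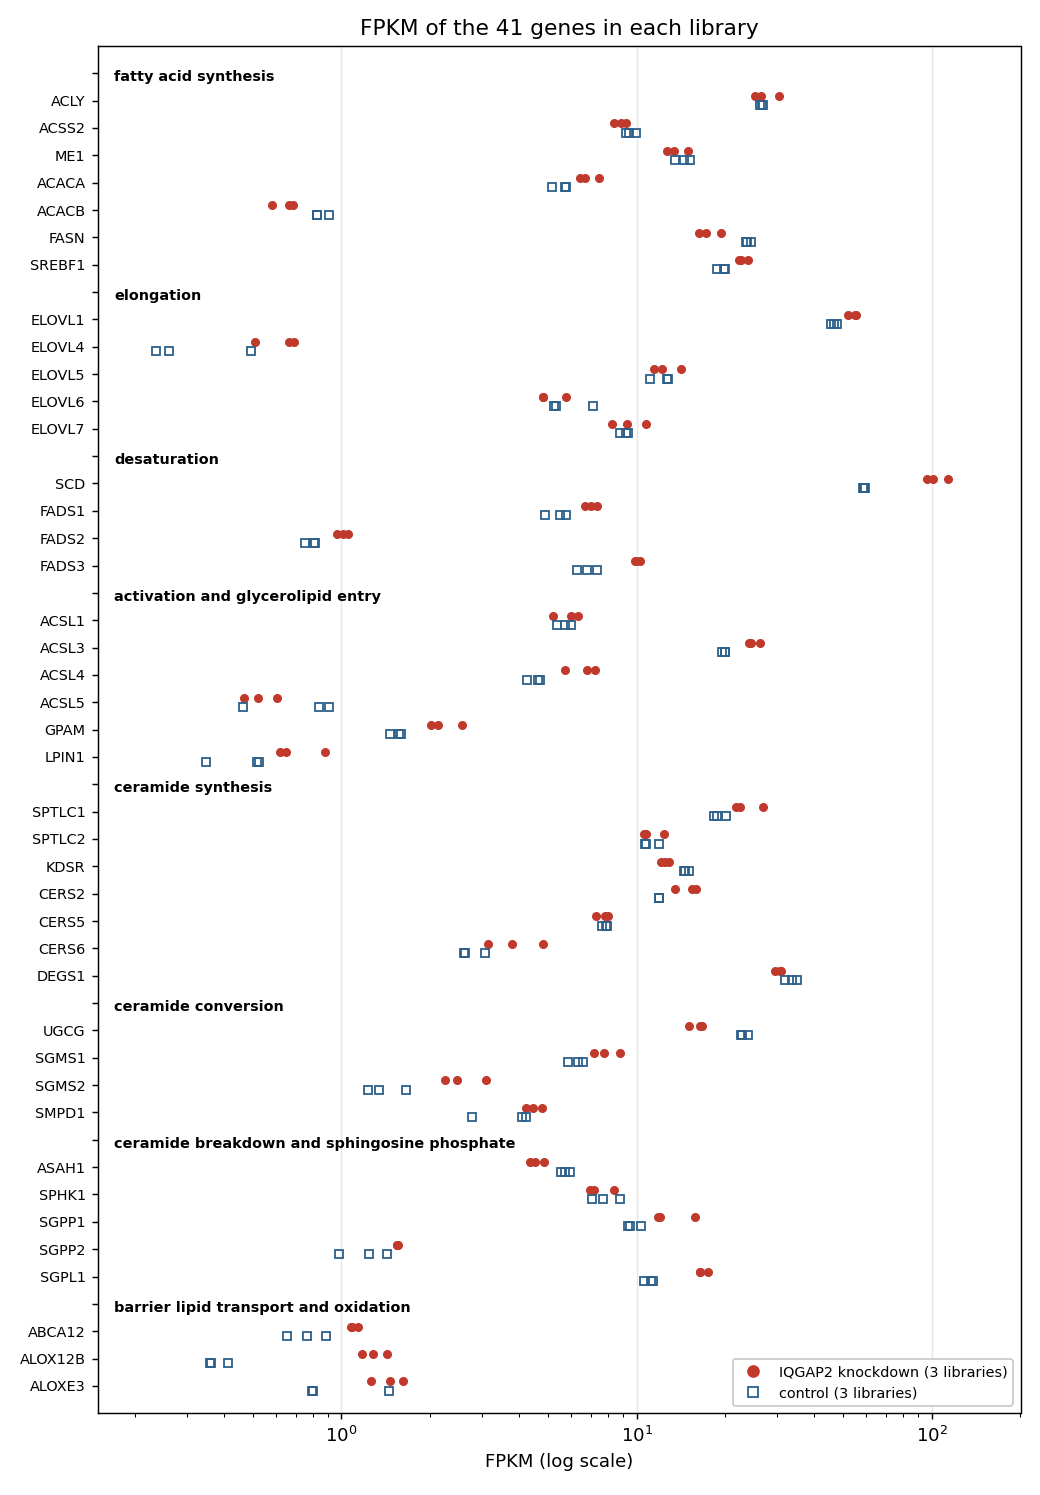
FPKM of each of the 41 genes, on a log axis, in the 3 IQGAP2 knockdown libraries (filled circles) and the 3 control libraries (open squares), with genes grouped by step. SCD is the highest of the genes, and its 3 knockdown values, 96.6 to 114 FPKM, lie to the right of its 3 control values near 59 FPKM.

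Gene length and the FPKM sum of the libraries moved with these counts. The change of all genes rose with exonic length, with a median of -0.19 (log2) over the shortest decile and 0.19 over the longest, and the 41 genes were longer than most (median exonic length 6415 bases, against 4946 over all genes in the table). With the length trend removed from each library, 18 genes passed as higher and 5 as lower (28.0% and 28.7% of all genes tested), but the median fell to 0.11. SREBF1, ACACA, ABCA12 and DEGS1 lost their calls there, while SMPD1, SGPP2 and ALOXE3 passed as higher and ACACB as lower. FPKM sums were 234624 to 248082 in knockdown and 271372 to 274709 in control libraries. Rescaling to a common sum moved the median of all genes to 0.14, with 72.6% of all calls higher against 51.5%. It left 24 of the 40 tested lipid genes higher and 2 lower, namely FASN and UGCG. Over all 11214 genes tested, 4864 were higher and 1838 lower under that sum.

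Of the 6 enzymes that supply and build palmitate, ACACA rose and FASN fell, and the regulator SREBF1 rose. With the regulator, 28.6% were higher and 14.3% lower, against 29.5% and 27.8% of all genes tested. With the length trend removed, none of these 7 genes was higher and 2, FASN and ACACB, were lower (28.0% and 28.7% of all genes tested). Fatty acid synthase, FASN (chr17:82078333-82098332, minus strand), fell. It stood at 16.3, 19.3 and 17.2 FPKM in knockdown libraries, against 23.7, 23.6 and 24.4 FPKM in control libraries, and the groups did not overlap. FASN had a log2 change of -0.42 (SE 0.0616, adjusted p = 2.74e-04), and FASN passed as lower in all 15 alternative settings, with -0.26 under a common FPKM sum (adjusted p = 0.0094). ACACA, the cytosolic acetyl-CoA carboxylase that commits acetyl-CoA to fatty acids, rose to 6.45, 7.45 and 6.70 FPKM in knockdown libraries, against 5.76, 5.16 and 5.73 FPKM in control libraries (log2 change 0.26, SE 0.0716, adjusted p = 0.00997). With the length trend removed its change was 0.09 (adjusted p = 0.233).

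The mitochondrial carboxylase ACACB, whose product restrains fatty acid oxidation, was much lower than ACACA in every library, at 0.644 ± 0.0531 FPKM with knockdown and 0.856 ± 0.0464 FPKM in control libraries (log2 change -0.18, adjusted p = 0.0639). The groups did not overlap for ACACB, and the change was -0.36 with the length trend removed (adjusted p = 0.00373) and -0.44 with voom on recovered reads (adjusted p = 0.00784). ACACA thus made up 91.4 ± 1.21% of the summed carboxylase FPKM in knockdown and 86.6 ± 0.653% in control libraries. SREBF1, the transcription factor that drives fatty acid synthesis genes, stood at 22.5, 22.2 and 23.9 FPKM in knockdown libraries, against 19.8, 18.8 and 19.9 FPKM in control libraries. It rose by 0.22 on the log2 scale (SE 0.0505, adjusted p = 0.00401), with 0.13 and an adjusted p of 0.0715 once the length trend was removed. SREBF1 shares 6.9% of its exonic bases with RAI1 on the opposite strand.

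The 3 suppliers of acetyl-CoA and NADPH did not pass. ACLY, which splits citrate, stood at 27.3 ± 2.75 FPKM with knockdown and 26.5 ± 0.402 FPKM in control libraries (adjusted p = 0.663). Its knockdown spread came from replicate 2, at 30.4 FPKM beside 25.2 and 26.3 FPKM. ACSS2, which activates acetate, stood at 8.81 ± 0.399 FPKM with knockdown and 9.53 ± 0.414 FPKM in control libraries (adjusted p = 0.165), and ME1, the malic enzyme that supplies NADPH, at 13.7 ± 1.19 FPKM with knockdown and 14.4 ± 0.865 FPKM in control libraries (adjusted p = 0.407).

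Of the 4 desaturases among the 41 genes, 3 rose, where 29.5% of all genes tested were higher. The knockdown values lay wholly above the control values for all 4, against 31.4% of all genes in the table. SCD, which turns stearate into oleate (chr10:100347124-100364834, plus strand), was the most abundant of the 41 genes. It stood at 96.6, 114 and 101 FPKM in knockdown libraries, against 58.7, 59.3 and 59.1 FPKM in control libraries, so that the lowest knockdown library exceeded the highest control by a wide margin. SCD had a log2 change of 0.80 (SE 0.0593, adjusted p = 4.29e-06), and over the 15 alternatives it ran from 0.73 to 0.97. FADS3, a front-end desaturase relative known to act on sphingoid bases, rose to 9.99, 9.87 and 10.3 FPKM in knockdown libraries, against 7.34, 6.29 and 6.78 FPKM in control libraries (log2 change 0.50, SE 0.0641, adjusted p = 1.18e-04).

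FADS1, a desaturase of the polyunsaturated fatty acids, stood at 7.03, 7.33 and 6.69 FPKM in knockdown libraries, against 4.91, 5.52 and 5.75 FPKM in control libraries (log2 change 0.33, SE 0.0702, adjusted p = 0.00269). With the length trend removed the FADS1 change was 0.19 (adjusted p = 0.0331). Its partner FADS2, which acts before it in the same route, stood at 1.01 ± 0.0437 FPKM with knockdown and 0.791 ± 0.0337 FPKM in control libraries and missed the threshold (log2 change 0.17, adjusted p = 0.068). With the length trend removed the FADS2 change was 0.02. FADS1 and FADS2 lie on opposite strands with 490 exonic bases in common, and whether counting used strand is not given in the sources used here. SCD5, the other stearoyl-CoA desaturase and not among the 41, fell to 6.33, 7.22 and 6.04 FPKM in knockdown libraries, against 8.56, 9.18 and 8.45 FPKM in control libraries (log2 change -0.37, adjusted p = 0.00149). SCD therefore took 80.8 ± 0.917% of the summed desaturase FPKM in knockdown and 73.1 ± 0.0408% in control libraries, and SCD5 took 5.08 ± 0.219% in knockdown and 10.8 ± 0.457% in control libraries.

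The bases upstream of the start sites were read from RefSeq promoter windows (GRCh38.p14), which were found for 37 of the 41 genes. FASN, CERS2, ASAH1 and SGPP1 had no window and were not searched. They are shown for SCD and FADS3, the desaturases with the largest rises, and for ALOX12B, which had the largest ratio of means among the 41 genes. Capitals mark the CCAAT box, the element bound by NF-Y, read as CCAAT on either strand. Positions count from the RefSeq start, which differs from the ends of the GENCODE loci given for SCD and FADS3. The FADS3 stretch lies inside its GENCODE locus.
SCD (chr10:100346983-100347076, plus strand, -250 to -157 from the start): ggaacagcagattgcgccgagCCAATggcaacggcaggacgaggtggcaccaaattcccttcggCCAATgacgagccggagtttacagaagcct
FADS3 (chr11:61891639-61891721, minus strand, -176 to -94): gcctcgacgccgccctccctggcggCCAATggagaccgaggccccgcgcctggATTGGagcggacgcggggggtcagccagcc
ALOX12B (chr17:8087885-8087959, minus strand, -243 to -169): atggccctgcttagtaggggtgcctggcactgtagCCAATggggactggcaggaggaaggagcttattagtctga
SCD and FADS3 each had a pair of CCAAT boxes in this window and ALOX12B had 1. Genes that did not pass held as many or more, with 3 boxes upstream of SPTLC2 and 2 each upstream of ACLY and ELOVL5, and the untested ELOVL4 also had 2. Over the 250 bases upstream of the start, 11 of the 37 genes held a CCAAT box, against 33.0% of 27305 promoters. The E-box CACGTG was held by 2 of the 37 genes, ELOVL4 and ELOVL5, against 6.5% of promoters, and the GC box GGGCGG by 29 of the 37 genes, against 42.3% of promoters. The 27305 promoters were not limited to genes of the deposited table, so these shares are not matched to genes expressed in these cells. The sterol regulatory element, read only as the letters TCACNCCAC, was in none of the 37 windows and in 0.9% of promoters. Variants of these letters and bases farther from the start were not searched. The count therefore cannot tell whether a gene has or lacks such an element. Each motif was searched on both strands, and the motifs were counted apart from each other. A match is a description of letters, not of binding.

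Among the 4 elongases tested, ELOVL1 rose and ELOVL5, ELOVL6 and ELOVL7 did not pass. ELOVL1 makes saturated and monounsaturated very-long-chain fatty acids. It stood at 55.01, 52.1 and 55.3 FPKM in knockdown libraries, against 46.7, 47.8 and 45.5 FPKM in control libraries, without overlap (log2 change 0.21, SE 0.0451, adjusted p = 0.00275). This is a short gene, and with the length trend removed the change was 0.34 (adjusted p = 5.74e-05). ELOVL1 held 66.1 ± 3.33% of the summed elongase FPKM in knockdown and 62.9 ± 1.32% in control libraries, so it was the main elongase transcript in every library.

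ELOVL6, which turns palmitate into stearate, stood at 4.80, 5.76 and 4.83 FPKM in knockdown libraries, against 5.25, 7.13 and 5.34 FPKM in control libraries, with overlap (log2 change -0.16, adjusted p = 0.213). ELOVL5, an elongase of polyunsaturated chains, had a change of 0.04 (adjusted p = 0.696), and ELOVL7, which acts on saturated long chains, also had a change of 0.04 (adjusted p = 0.714). ELOVL4, needed for the ultra-long acyl chains of skin ceramides, was rare, with 20, 31 and 29 reads in knockdown libraries, against 12, 10 and 21 reads in control libraries. Its level was 0.622 ± 0.0973 FPKM with knockdown and 0.331 ± 0.143 FPKM in control libraries, and the log2 change was 0.29 (adjusted p = 0.0207) in the fit without a filter on low values, the only fit in which it was tested. The highest control value of ELOVL4, 0.495 FPKM, lay just below the lowest knockdown value, 0.511 FPKM.

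**Figure D2:**
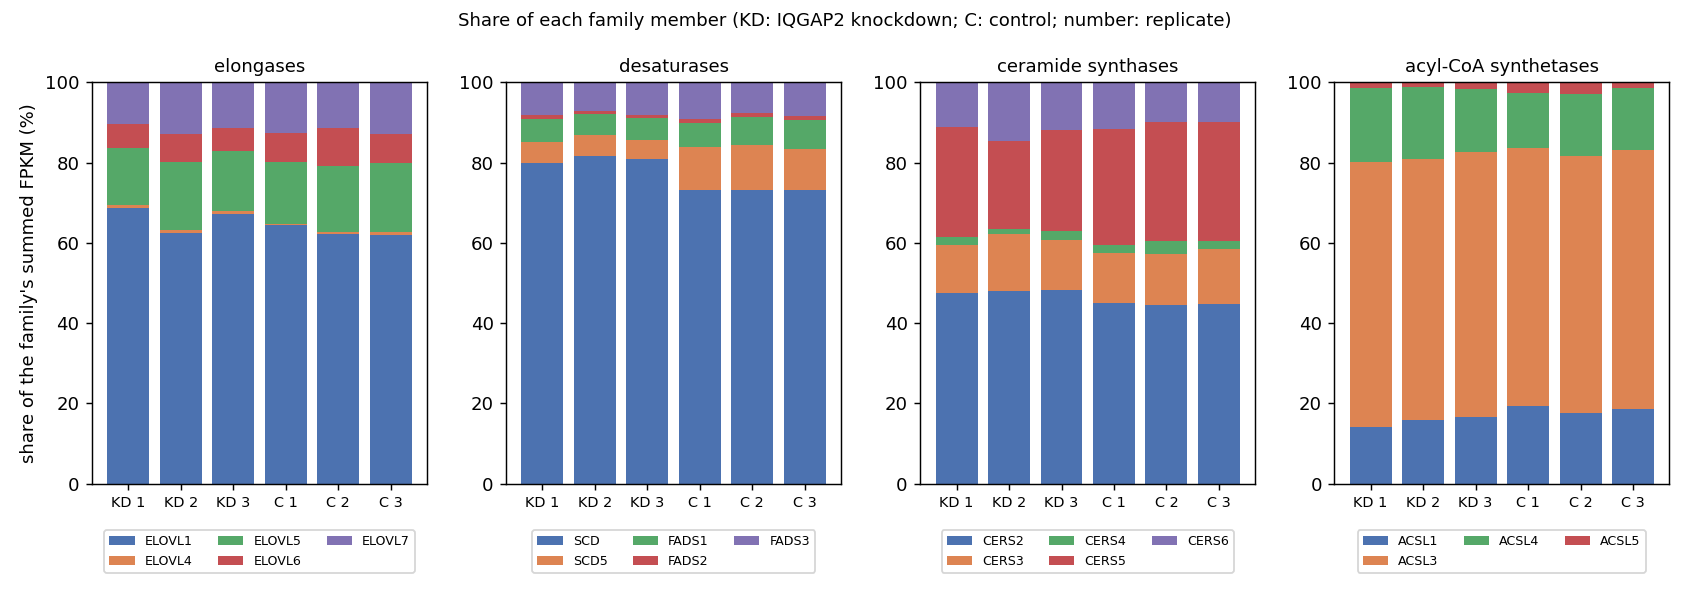
Stacked bars give the share (%) of each member in the summed FPKM of the elongases, desaturases, ceramide synthases and acyl-CoA synthetases, for each knockdown library (KD) and each control library (C). SCD took 79.9% to 81.7% of the desaturase FPKM in knockdown libraries and 73.1% in each control library, while ELOVL1, CERS2 and ACSL3 led their families in every library.

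Of 6 genes that activate fatty acids or bring them into glycerolipids, 3 rose and none fell (29.5% and 27.8% of all genes tested). ACSL3, an acyl-CoA synthetase of the endoplasmic reticulum and lipid droplets, stood at 24.4, 26.1 and 24.0 FPKM in knockdown libraries, against 19.9, 19.5 and 20.0 FPKM in control libraries (log2 change 0.31, SE 0.0493, adjusted p = 4.68e-04). ACSL4, which prefers arachidonate, rose to 6.80, 7.21 and 5.73 FPKM in knockdown libraries, against 4.27, 4.65 and 4.71 FPKM in control libraries (log2 change 0.45, SE 0.0826, adjusted p = 0.00115). Both genes passed in all 15 alternatives, and ACSL3 held 65.7 ± 0.558% of the summed FPKM of the 4 synthetases in knockdown and 64.4 ± 0.355% in control libraries.

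GPAM, the mitochondrial enzyme that places the first acyl chain on glycerol phosphate, rose to 2.02, 2.57 and 2.13 FPKM in knockdown libraries, against 1.46, 1.59 and 1.57 FPKM in control libraries (log2 change 0.35, SE 0.083, adjusted p = 0.00506), and had a change of 0.21 with the length trend removed (adjusted p = 0.0268). LPIN1, a phosphatidate phosphatase, stood at 0.716 ± 0.145 FPKM with knockdown and 0.464 ± 0.101 FPKM in control libraries, without overlap, and missed the threshold (log2 change 0.23, adjusted p = 0.0536). It passed in 4 of 14 alternatives, and its change was 0.07 with the length trend removed. ACSL1, at 5.85 ± 0.585 FPKM with knockdown and 5.70 ± 0.306 FPKM in control libraries, and ACSL5, at 0.532 ± 0.0701 FPKM with knockdown and 0.737 ± 0.239 FPKM in control libraries, did not pass (adjusted p = 0.758 and 0.189). ACSL5 varied among controls, with 0.840, 0.907 and 0.464 FPKM, and passed as lower when control replicate 3 was left out (log2 change -0.29, adjusted p = 0.0255).

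Genes of ceramide synthesis moved in both directions, with 3 of 7 higher and 2 lower (29.5% and 27.8% of all genes tested). SPTLC1, a subunit of serine palmitoyltransferase that starts sphingolipid synthesis, stood at 21.8, 26.8 and 22.4 FPKM in knockdown libraries, against 18.3, 20.1 and 18.7 FPKM in control libraries (log2 change 0.29, SE 0.0758, adjusted p = 0.00746). Its catalytic partner SPTLC2 was at 11.2 ± 1.02 FPKM with knockdown and 11.1 ± 0.707 FPKM in control libraries, short of the threshold (adjusted p = 0.886). Of other subunits outside the 41, SPTLC3 rose to 2.15 ± 0.10 FPKM in knockdown, against 1.505 ± 0.226 FPKM in control libraries (log2 change 0.33, adjusted p = 0.00721).

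KDSR, which reduces the first product of that enzyme, fell to 12.4, 12.9 and 12.1 FPKM in knockdown libraries, against 14.5, 15.0 and 14.6 FPKM in control libraries (log2 change -0.22, SE 0.0503, adjusted p = 0.00416). The KDSR call was lost with FPKM rescaled to a common sum (log2 change -0.06, adjusted p = 0.394). DEGS1, the desaturase that turns dihydroceramide into ceramide, stood at 29.5, 31.0 and 30.5 FPKM in knockdown libraries, against 33.6, 35.04 and 32.0 FPKM in control libraries (log2 change -0.14, adjusted p = 0.0321). This was the weakest call among the 41 genes. It was lost in 7 of 15 alternatives, among them the fits without knockdown replicate 1 or 3 or without control replicate 1 or 2 (adjusted p 0.0629 to 0.14), and its change came to -0.01 after removal of the length trend and 0.02 under a common sum.

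The ceramide synthases join a sphingoid base to an acyl chain, and each prefers certain chain lengths. CERS2, which uses very long chains, rose to 13.5, 15.9 and 15.4 FPKM in knockdown libraries, against 11.9 FPKM in each control library (log2 change 0.30, SE 0.0637, adjusted p = 0.00251). CERS6, which uses palmitoyl chains, stood at 3.13, 4.84 and 3.78 FPKM in knockdown libraries, against 3.06, 2.61 and 2.59 FPKM in control libraries (log2 change 0.38, SE 0.117, adjusted p = 0.0186). The lowest knockdown and the highest control value of CERS6 were close, and the call was lost without control replicate 2 or without control replicate 3 (adjusted p = 0.0593 and 0.0639). Without knockdown replicate 2 the CERS6 change was 0.25 (adjusted p = 0.0386). CERS5, the other palmitoyl ceramide synthase, was at 7.71 ± 0.389 FPKM with knockdown and 7.83 ± 0.168 FPKM in control libraries (adjusted p = 0.792). CERS3, the synthase of ultra-long-chain epidermal ceramides and not among the 41, did not pass either (log2 change 0.17, adjusted p = 0.163). Genes on the opposite strand overlap 37.2% of the exonic bases of CERS2 (SETDB1 and an antisense transcript) and 41.4% of those of CERS6 (CERS6-AS1), so reads of these genes cannot be told apart if counting ignored strand.

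Ceramide is passed on to glucosylceramide or to sphingomyelin, and the enzymes of these branches moved in opposite directions. UGCG, which makes glucosylceramide (chr9:111896766-111935369, plus strand), fell to 15.1, 16.7 and 16.5 FPKM in knockdown libraries, against 22.6, 23.9 and 22.7 FPKM in control libraries. UGCG had a log2 change of -0.49 (SE 0.0542, adjusted p = 4.74e-05), the largest fall among the 41 genes, and it ran from -0.53 to -0.34 over 15 alternatives, all past the threshold. SGMS1, the sphingomyelin synthase of the Golgi, rose to 7.16, 8.80 and 7.73 FPKM in knockdown libraries, against 5.86, 6.57 and 6.33 FPKM in control libraries (log2 change 0.29, SE 0.0778, adjusted p = 0.00897).

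SGMS2, the sphingomyelin synthase of the plasma membrane, rose to 2.25, 3.10 and 2.47 FPKM in knockdown libraries, against 1.34, 1.23 and 1.66 FPKM in control libraries (log2 change 0.58, SE 0.103, adjusted p = 9.48e-04). SGMS2 made up 24.7 ± 1.15% of the FPKM of both synthases in knockdown and 18.4 ± 2.48% in control libraries. UGCG over the sum of SGMS1 and SGMS2 was 1.6, 1.41 and 1.61 in knockdown libraries, against 3.14, 3.06 and 2.84 in control libraries. SMPD1, the acid sphingomyelinase that returns sphingomyelin to ceramide, did not pass (log2 change 0.24, SE 0.116, adjusted p = 0.101). Its values were 4.46, 4.22 and 4.79 FPKM in knockdown libraries, against 2.78, 4.08 and 4.23 FPKM in control libraries, with control replicate 1 far below the others.

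**Figure D3:**
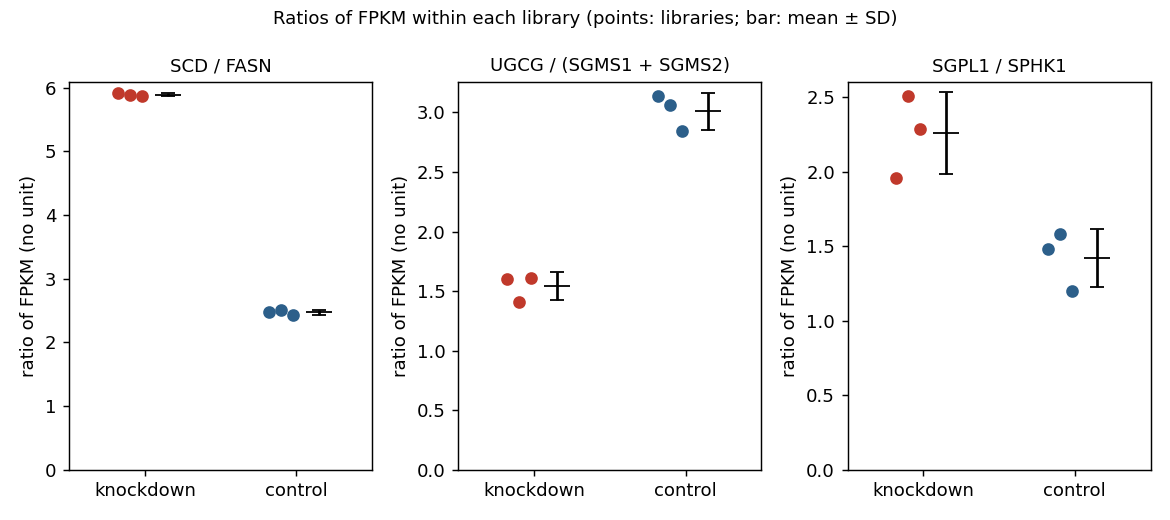
Ratios of FPKM within each library (points, 3 IQGAP2 knockdown and 3 control libraries, with mean and SD beside them) for SCD over FASN, UGCG over SGMS1 plus SGMS2, and SGPL1 over SPHK1. SCD over FASN lay at 5.87 to 5.91 in knockdown and 2.43 to 2.51 in control libraries, and the groups did not overlap in any panel.

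The ratio of SCD to FASN was 5.91, 5.89 and 5.87 in knockdown libraries, against 2.47, 2.51 and 2.43 in control libraries. SCD and FASN were each highest in knockdown replicate 2 among the knockdown libraries, and their ratio varied little there (SD 0.0195). These ratios were chosen with the values known, so no test is given for them.

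In the breakdown of ceramide and the turnover of sphingosine phosphate, 2 of 5 genes rose and 1 fell (29.5% and 27.8% of all genes tested). SGPL1, the lyase that ends sphingolipid breakdown by cleaving sphingosine phosphate (chr10:70815961-70881173, plus strand), rose to 16.4, 17.4 and 16.4 FPKM in knockdown libraries, against 11.4, 11.2 and 10.6 FPKM in control libraries. SGPL1 had a log2 change of 0.56 (SE 0.0533, adjusted p = 1.95e-05), and all 15 alternatives passed, from 0.48 to 0.72. SGPP1, a phosphatase that removes the phosphate, stood at 12.0, 15.8 and 11.9 FPKM in knockdown libraries, against 9.32, 10.4 and 9.50 FPKM in control libraries (log2 change 0.40, SE 0.0973, adjusted p = 0.00589), and at 0.27 without knockdown replicate 2 (adjusted p = 0.00258).

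Its relative SGPP2 was at 1.55 ± 0.0100 FPKM with knockdown and 1.22 ± 0.224 FPKM in control libraries and missed the threshold (log2 change 0.21, adjusted p = 0.0644), although the groups did not overlap. SPHK1, the kinase that makes sphingosine phosphate, stood at 8.36, 6.95 and 7.17 FPKM in knockdown libraries, against 7.71, 7.08 and 8.79 FPKM in control libraries (adjusted p = 0.575). SGPL1 over SPHK1 was 1.96, 2.51 and 2.29 in knockdown libraries, against 1.48, 1.58 and 1.20 in control libraries. ASAH1, the lysosomal ceramidase that frees sphingosine, fell to 4.87, 4.54 and 4.34 FPKM in knockdown libraries, against 5.93, 5.73 and 5.57 FPKM in control libraries (log2 change -0.27, SE 0.0653, adjusted p = 0.00515). With a common FPKM sum its change was -0.13 (adjusted p = 0.145), and with the length trend removed it was -0.47.

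The barrier genes were low in these cells, and 2 of 3 rose, where 29.5% of all genes tested were higher. ALOX12B, the lipoxygenase that oxidises the linoleate of esterified ultra-long ceramides (chr17:8072636-8087716, minus strand), stood at 1.43, 1.18 and 1.28 FPKM in knockdown libraries, against 0.358, 0.412 and 0.362 FPKM in control libraries. These values rest on 51, 50 and 49 reads in knockdown libraries, against 15, 16 and 14 reads in control libraries. The mean was 3.43 times that of the control libraries, and the log2 change was 0.74 (SE 0.0768, adjusted p = 3.51e-05), or 1.54 with a pseudocount of 0.1. An antisense transcript overlaps 26.8% of the exonic bases of ALOX12B.

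ALOXE3, which acts on the product of ALOX12B, was at 1.62, 1.46 and 1.26 FPKM in knockdown libraries, against 0.802, 1.45 and 0.794 FPKM in control libraries, with overlap through control replicate 2. It missed the threshold (log2 change 0.29, adjusted p = 0.0641) and passed without control replicate 2 (log2 change 0.44, adjusted p = 0.00465). ABCA12, the lamellar body transporter of glucosylceramide, stood at 1.14, 1.08 and 1.08 FPKM in knockdown libraries, against 0.887, 0.655 and 0.761 FPKM in control libraries (log2 change 0.25, SE 0.0783, adjusted p = 0.0201). The ABCA12 call was lost with the length trend removed (log2 change 0.12, adjusted p = 0.212) and without knockdown replicate 1, control replicate 2 or control replicate 3 (adjusted p 0.0532 to 0.0801).

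**Figure D4:**
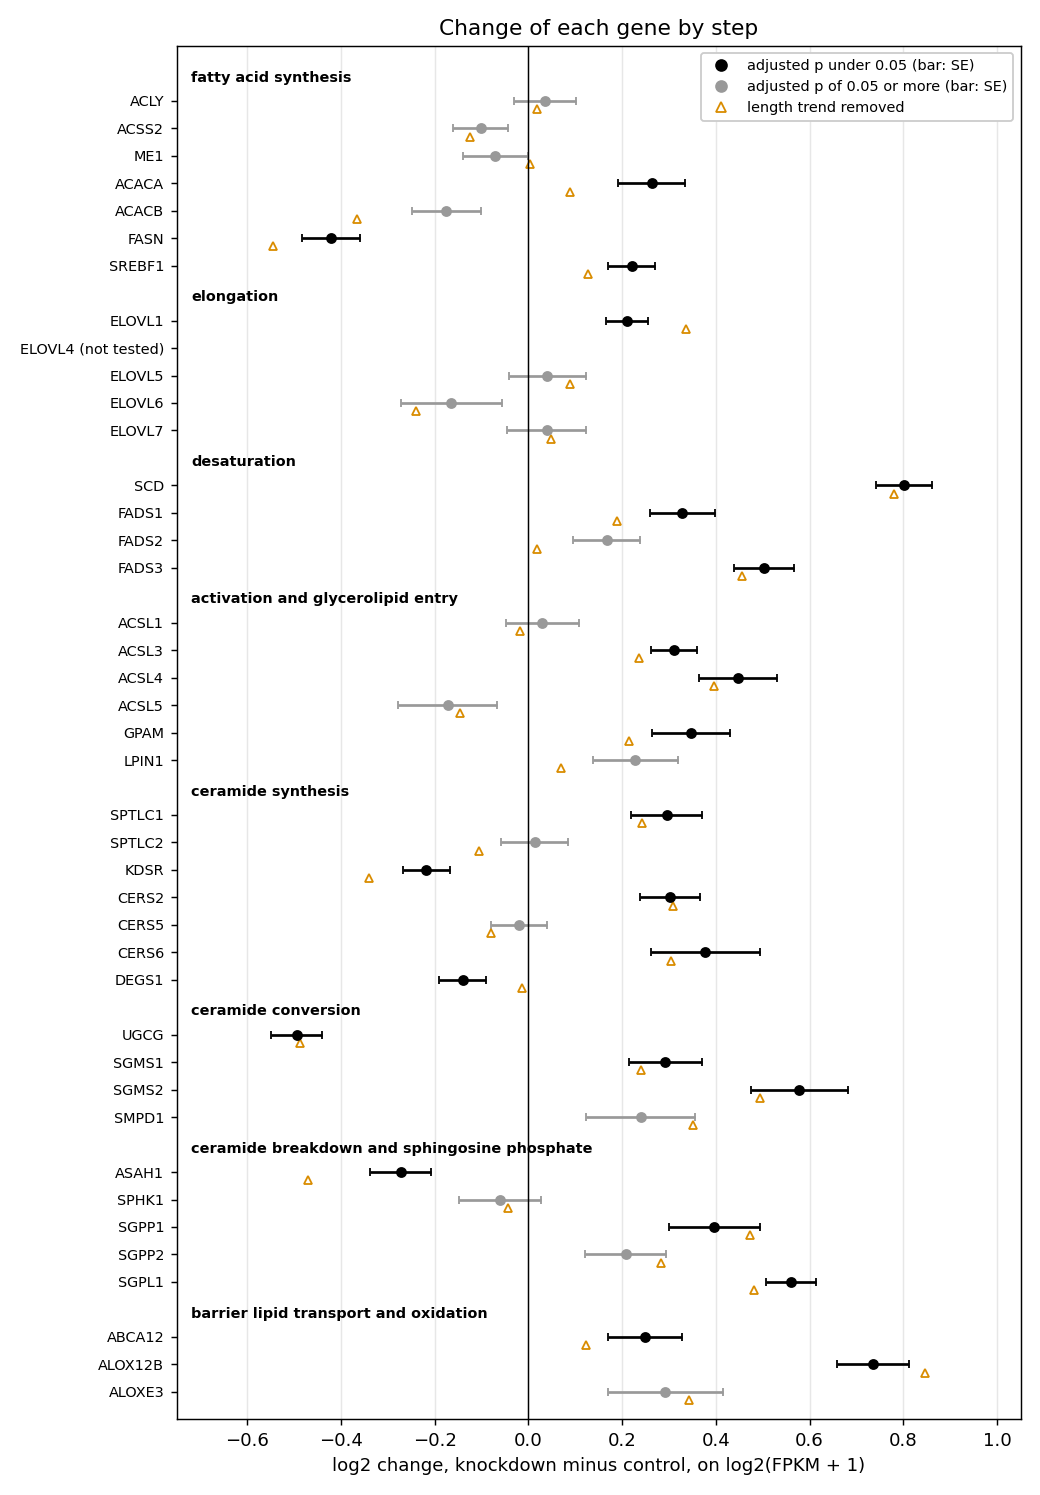
Log2 change of each tested gene, knockdown minus control on log2(FPKM + 1), with its SE, by step; black points passed the test and grey points did not, and open triangles give the change with the length trend removed. Among the filled points, SCD (0.80) and ALOX12B (0.74) lie farthest to the right and UGCG (-0.49) and FASN (-0.42) farthest to the left.

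Knockdown replicate 2 was the highest or lowest of the knockdown libraries for 36 of the 41 genes and the highest for 27 (10089 and 5629 of 12829 genes in the table). Without it, 18 of the 40 tested genes passed as higher and 5 as lower, and none of them gained or lost a call. Over all 11214 genes tested, 3250 were higher and 3212 lower in that fit.

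Other genes of the same steps, listed by function, were set beside these. Of 14 tested that supply carbon to fatty acid synthesis or take part in elongation and desaturation, 2 rose and 8 fell (median log2 change -0.22). These are 14.3% and 57.1%, against 29.5% and 27.8% of all genes tested. The elongation cycle went both ways: the dehydratase HACD2 rose to 37.2, 45.9 and 40.3 FPKM in knockdown libraries, against 28.4, 26.3 and 27.2 FPKM in control libraries (log2 change 0.57, adjusted p = 1.03e-04), and the ketoreductase HSD17B12 rose by 0.41 (adjusted p = 0.00154). TECR, the reductase that closes each elongation cycle, fell to 12.4, 9.46 and 12.8 FPKM in knockdown libraries, against 23.8, 23.4 and 25.03 FPKM in control libraries (log2 change -1.01, SE 0.0936, adjusted p = 1.70e-05). SLC25A1, the carrier that exports citrate from mitochondria, fell to 51.1 ± 7.01 FPKM in knockdown, against 76.7 ± 2.10 FPKM in control libraries (log2 change -0.58, adjusted p = 2.66e-04).

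Of 16 tested regulators of lipid synthesis, 5 rose and 3 fell (median -0.07), or 31.2% and 18.8%, against 29.5% and 27.8% of all genes tested. The counts were 4 and 5 without knockdown replicate 2, against 3250 and 3212 of all 11214 genes tested. With the length trend removed they were 5 and 6, against 28.0% and 28.7% of all genes tested. INSIG1, which holds SREBP precursors in the endoplasmic reticulum, fell to 5.03 ± 0.336 FPKM in knockdown, against 7.21 ± 0.474 FPKM in control libraries (log2 change -0.44, adjusted p = 4.68e-04). MBTPS2, a protease that releases SREBPs, rose to 6.21 ± 0.833 FPKM in knockdown, against 4.11 ± 0.0436 FPKM in control libraries (log2 change 0.49, adjusted p = 6.88e-04), and PRKAB1, a subunit of the kinase that inactivates acetyl-CoA carboxylase, rose by 0.38 (adjusted p = 7.35e-04). The liver X receptor gene NR1H2 fell by 0.28 (adjusted p = 0.00134), a call lost with a common FPKM sum (adjusted p = 0.095).

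Of 22 further sphingolipid genes tested, 2 rose and 6 fell (median -0.05), or 9.09% and 27.3%, against 29.5% and 27.8% of all genes tested. Under a common FPKM sum 7 were higher and none lower (median 0.06). Over all 11214 genes tested, 4864 were higher and 1838 lower there, with a median of 0.14. GALC, which breaks down galactosylceramide, rose to 0.762 ± 0.144 FPKM in knockdown, against 0.369 ± 0.105 FPKM in control libraries (adjusted p = 0.00682). PSAP, the precursor of the saposins that help lysosomal sphingolipid breakdown, fell to 316 ± 5.72 FPKM in knockdown, against 384 ± 5.40 FPKM in control libraries (log2 change -0.28, adjusted p = 5.71e-04), a call lost with a common sum (adjusted p = 0.0549). SMPD2, a neutral sphingomyelinase, had a change of -0.38 (adjusted p = 0.00581), lost with a common sum and with the length trend removed (adjusted p = 0.0655 and 0.0785). Of 5 further barrier genes tested, 1 rose and 1 fell, or 20.0% each, against 29.5% and 27.8% of all genes tested. TGM1, the transglutaminase of the cornified envelope, rose to 61.2 ± 2.203 FPKM in knockdown, against 43.5 ± 1.47 FPKM in control libraries (adjusted p = 2.37e-05). NIPAL4, a gene of inherited ichthyosis, fell to 4.03 ± 0.611 FPKM in knockdown, against 6.70 ± 0.741 FPKM in control libraries (adjusted p = 4.96e-04).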

How the data were processed

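Per the labels' protocols, total RNA was extracted with TRIzol and libraries were made with an Illumina TruSeq RNA kit. The authors deposited FPKM values, 1 per gene and library. HISAT2 2.2.1 and the build GRCh38 are named in the submitters' processing notes. No source used here gives the counting program, annotation or strand setting. The lowest gene mean in the table is 0.1 FPKM. Whole reads were recovered for all 12829 genes from the steps of the FPKM values (tolerance 0.004 reads), and served for depth and as an alternative. Precision is limited for genes with few reads.

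The main test, run in R 4.3.3 with limma 3.58.1, took log2(FPKM + 1) of the 11214 genes averaging 0.5 FPKM or more, with a mean-variance trend, group as the only factor, and two-sided p-values adjusted by Benjamini and Hochberg (threshold 0.05). The fit was also tested on simulated data. Voom used trimmed-mean (TMM) factors. Lengths, loci and overlaps came from GENCODE v29 (GRCh38), and promoters from RefSeq. Named were all 41 genes, IQGAP2, and of each further list the 2 largest rises and 2 largest falls past the threshold without overlap of the groups; SCD5 and CERS3, as relatives of members, were named after their values were seen. The members and lists were chosen with earlier results of these data known. Both groups number their replicates 1 to 3, and no label pairs them.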

Additional observations from a re-analysis of the deposited data

How the results depend on the processing

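Over 15 alternatives (2 pseudocounts, 2 filters on low values, a common FPKM sum, quantile normalization, voom on recovered reads, the length trend removed, the replicate block, and each library left out), 14 of the 18 genes that rose and 2 of the 5 that fell (FASN and UGCG) passed in the same direction wherever they were tested. A common FPKM sum cut the genes called lower to 1838 over the table and to 2 among the lipid genes, and under it ACSS2 (0.0483), ME1 (0.0852), CERS5 (0.13), SPHK1 (0.0869) and DEGS1 (0.021) changed sign. Removing the length trend changed the sign of ME1 (0.0027), ACSL1 (-0.0174) and SPTLC2 (-0.11), and quantile normalization that of ACSL1 (-0.0042). Other reversals came from leaving out 1 library, all for genes that had not passed, with log2 changes of ACLY -0.0415 to 0.0893, ELOVL5 -0.0417 to 0.1039, ELOVL7 -0.0535 to 0.1243, ACSL1 -0.0213 to 0.0999, SPTLC2 -0.0544 to 0.0611, CERS5 -0.0453 to 0.0168, SPHK1 -0.1325 to 0.0137 over the 6 libraries left out. The same-numbered libraries correlated by -0.067, -0.038 and 0.019 in their deviations from the group means. With 3 libraries per group this cannot tell whether same-numbered cultures were handled together, so pairing remains unknown. With the replicate block 3167 genes were higher and 3024 lower over the table. Of the lipid genes 18 were higher and 5 lower, and none changed its call. The causes were not tested. Depth limits genes with few reads such as ELOVL4 and ALOX12B.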

Other observations

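Genes that burn or store fatty acids, outside the 41, were also listed by function. Of 17 tested genes of fatty acid oxidation, none rose and 10 fell (median log2 change -0.34, and -0.36 with the length trend removed). The share called was 58.8%, against 57.4% of all genes tested, of which 29.5% were higher and 27.8% lower. HADHB, a subunit of the mitochondrial trifunctional protein, fell to 30.3, 30.9 and 30.9 FPKM in knockdown libraries, against 51.4, 51.2 and 52.1 FPKM in control libraries (log2 change -0.73, adjusted p = 7.80e-07 in limma). ACADVL, the dehydrogenase of very long acyl chains, fell to 81.5 ± 5.21 FPKM in knockdown, against 136 ± 2.85 FPKM in control libraries (log2 change -0.73, adjusted p = 3.89e-06). Under a common FPKM sum 9 of the 17 genes were lower and 1 higher, against 1838 and 4864 of all 11214 genes tested.

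PLIN2, a coat protein of lipid droplets, fell to 7.06, 6.25 and 6.29 FPKM in knockdown libraries, against 20.2, 20.9 and 20.9 FPKM in control libraries (log2 change -1.53, SE 0.0587, adjusted p = 8.62e-08). DGAT1, which makes triacylglycerol, fell to 6.46 ± 0.695 FPKM in knockdown, against 9.97 ± 0.526 FPKM in control libraries (adjusted p = 1.81e-04). GPAT3, an acyltransferase of glycerol phosphate, rose to 0.763 ± 0.0950 FPKM in knockdown, against 0.360 ± 0.177 FPKM in control libraries (adjusted p = 0.0103). MGLL, a monoacylglycerol lipase, also passed as higher (adjusted p = 0.0215), a call lost in 4 alternatives. Over the 15 tested genes of glycerolipid synthesis and storage, 6 rose and 4 fell, or 40.0% and 26.7%, against 29.5% and 27.8% of all genes tested.

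Of 10 tested genes of fatty acid activation, uptake and binding, none rose and 5 fell (29.5% and 27.8% of all genes tested). Under a common sum 3 were higher and 4 lower, against 4864 and 1838 of all 11214 genes tested. Without knockdown replicate 2 the counts were 2 and 5, against 3250 and 3212 of all 11214 genes tested. With the length trend removed they were 1 and 6, against 28.0% and 28.7% of all genes tested. DBI, the acyl-CoA binding protein, fell to 12.8 ± 0.122 FPKM in knockdown, against 22.4 ± 1.33 FPKM in control libraries (log2 change -0.76, adjusted p = 3.65e-06). FABP4, a fatty acid binding protein known from adipocytes, fell to 23.7 ± 1.57 FPKM in knockdown, against 35.6 ± 0.694 FPKM in control libraries (adjusted p = 2.11e-05). Of 5 adipocyte markers, PLIN1 and LIPE had a row, summing to 0.266 to 0.555 FPKM in knockdown libraries, against 0.516 to 0.597 FPKM in control libraries, and ADIPOQ, LEP and CIDEC had none. Their part in the FABP4 value was not tested.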
